A study of Mus musculus with 18 samples.

Results

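Larynges of mice that had inhaled cigarette smoke were compared with larynges of mice kept in room air. The comparison rests on 12 of the 18 libraries of the series, 6 per group, chosen by their labelled exposure. It covers all 17537 of 54532 listed genes that passed a filter on low counts. All mice were C57BL6/J males aged 8 to 9 weeks. Exposure took place in an inEXPOSE whole-body chamber, for 1 hour on each of 5 days per week during 4 weeks. Smoke came from the 3R4F research cigarette, and the controls received room air on the labelled schedule. RNA was taken from whole larynges. The labels speak of individual mice but do not tie each library to 1 animal, so p-values measure the spread between these libraries, which may be partly technical. A further 6 libraries, from mice given JUUL Virginia tobacco e-cigarette aerosol, share the fitted spread. They are quoted where smoke was tested against them, and once for the number of calls they shared against air.

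The larynx joins several tissues in a small organ. Squamous epithelium covers the vocal folds, and ciliated and secretory epithelium lines most of the remaining surface. Submucosal glands, cartilages, striated and smooth muscle, vessels and nerves lie beneath, and the thyroid and parathyroid glands adjoin it. Smoke brings hydrocarbons that activate the aryl hydrocarbon receptor (AhR), a ligand-dependent transcription factor, along with oxidants and irritants that meet the surface first. A whole-organ library averages all of these cells, so that fewer cells of a type and less RNA per cell cannot be told apart.

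Libraries held 15551432 to 17072677 counts in air and 15868783 to 20306390 in smoke. Levels are given as CPM, the usual depth-scaled count, computed on TMM-scaled library sizes. Defining genes of the labelled organ were present in all of them, among them Foxj1 of ciliated cells, Krt5 and Krt13 of stratified epithelium, Acan of cartilage and Myh4 of fast muscle, which was at 4284 to 10800 CPM in air against 7765 to 12380 CPM in smoke. Tissue content was uneven. The summed level of 21 glandular acinar genes was 7672, 1635 and 2912 CPM in air 4, 5 and 6, against 24520 to 32910 CPM in air 1, 2 and 3 and 23410 to 34680 CPM in smoke. Cartilage genes (22) summed to 247 to 360 CPM in air 4, 5 and 6, against 714 to 1032 CPM in the other air libraries and 593 to 1588 CPM in smoke. Parathyroid genes (11) were near their lowest in air 4 (69.8 CPM) and in smoke 1, 3 and 6 (56.1, 58.8 and 77.3 CPM), against 1169 to 8087 CPM in the other libraries. Values without air 4, 5 and 6 are given for part of the genes that rest on these libraries. For the others only the genes of the group that kept or lost their call, or their number, are given. For the fit without air 4 and smoke 1, 3 and 6 only counts of calls are given, 9 genes in all.

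Of the 17537 genes, 171 rose and 108 fell, which is 1.59% of those tested (0.975% and 0.616%). A gene is said to have risen or fallen when its adjusted p in edgeR's quasi-likelihood test was under 0.05. Most changes were moderate: the median log2 fold change was 0.66 among the genes that rose and -0.63 among those that fell, and 36 and 18 genes changed at least 2-fold. Of the genes called, 262 encode proteins. The 12 libraries separated without overlap in 426 genes (2.43%), among them 113 of the 171 that rose and 66 of the 108 that fell. Without overlap, smoke was higher in 1.54% of tested genes and lower in 0.89%. Over all tested genes the median log2 fold change was 0.01, and 51.6% lay above 0. The gene lists below were chosen with earlier results of these data known. Counts of their members beside these shares are descriptions and not tests of enrichment. For some lists, calls by DESeq2 and voom are given as well, which over all 17537 tested genes called 967 and 1120. The share of all tested genes at an unadjusted p below 0.05 is not given here. List counts at that level therefore stand without a background.

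The split of calls moved with the scaling: it was 171 higher and 108 lower with TMM, 163 and 127 with upper quartile factors, 130 and 141 with RLE size factors, and 115 and 179 with total counts alone. Single libraries also weighed on the calls. Smoke 5 held the highest smoke value in 93 of the 171 genes that rose, and air 3 the highest air value in 45 of the 108 that fell. Leaving out a single air library gave 50 calls for air 5, 96 for air 6, 120 for air 4 and 562 for air 2. For smoke libraries left out in the same way the count was 58 for number 5, 70 for number 6, 84 for number 4, 108 for number 3, 177 for number 1 and 184 for number 2. In each of the 12 fits without 1 library 27 of the genes that rose and 15 of those that fell were called. Without air libraries 4, 5 and 6 there were 451 calls (2.49% of those tested), 114 higher and 337 lower, which held 39 of the 171 and 54 of the 108.

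**Figure D1:**
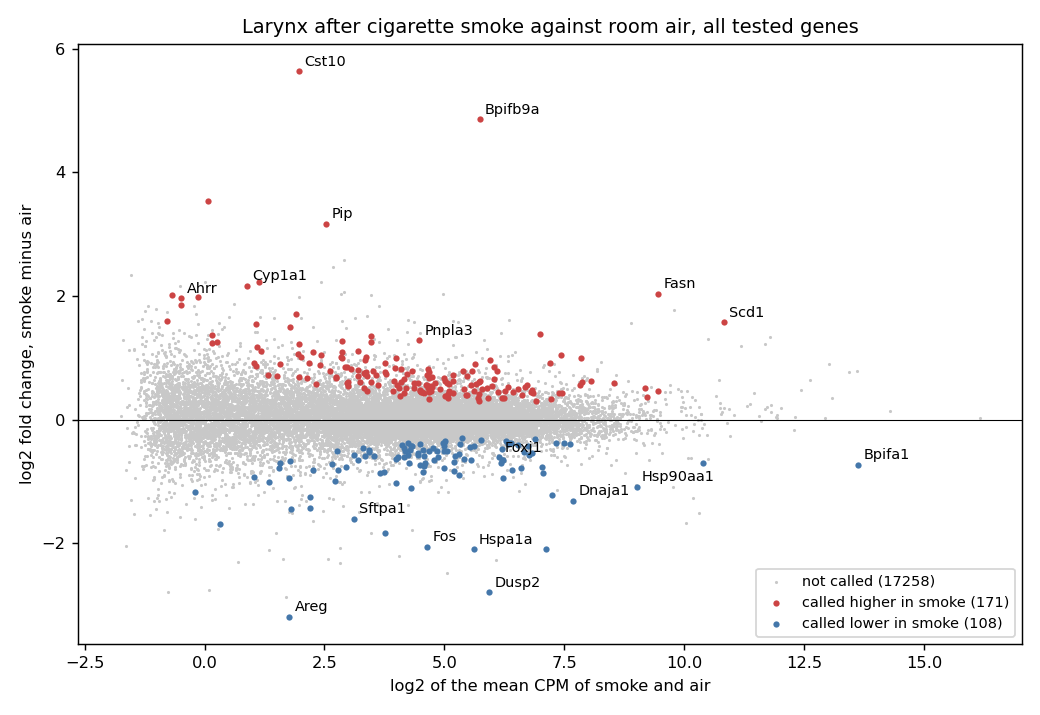
Each point is 1 of 17537 tested genes, with the log2 of its mean CPM over smoke and air on the x axis and its log2 fold change, smoke minus air, on the y axis. The 171 genes called higher (red) and 108 called lower (blue) lie among the others (grey). The largest increases among the named genes are in Cst10 and Bpifb9a, both from the list of glandular acinar genes.

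Among 12 AhR target genes, 2 rose and 1 fell (median log2 fold change 0.19). Of all tested genes 0.975% were called higher and 0.616% lower. Cyp1a1, a cytochrome P450 that oxidises polycyclic hydrocarbons, was at 0.301, 0.672 and 1.22 CPM (lowest, median and highest) in air and 2.25, 2.90 and 4.23 CPM in smoke, a log2 fold change of 2.17 (SE 0.27, adjusted p = 0.00119) that rests on 67 counts in all air libraries and 315 in smoke. Ahrr, the repressor that competes with AhR, was at 0.175, 0.235 and 0.449 CPM in air against 0.601, 1.27 and 1.58 CPM in smoke (1.96, SE 0.33, adjusted p = 0.00657). Every smoke library lay above every air library for both genes, and both were called in each fit without 1 library. Cyp1a1 was also higher than after e-cigarette aerosol (1.88, adjusted p = 0.000107), a comparison in which 16.5% of tested genes were called and which shares its smoke libraries with this one. The e-cigarette libraries differed in tissue content, which stands beside every difference from them quoted here. Their thyroid follicle genes summed to 153 to 29440 CPM, against 58480 to 95970 CPM in smoke, and their gland genes to 23740 to 69830 CPM. The part of this in those differences was not tested. For Ahrr the difference from e-cigarette was 0.54 (adjusted p = 0.219).

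The wider detoxification lists held few calls, where 1.59% of all tested genes were called. Of 34 enzymes of phase I and II metabolism only Adh1, the class I alcohol and retinol dehydrogenase, rose, from 36.8, 55.1 and 57.2 CPM in air to 62.0, 77.7 and 88.8 CPM in smoke (0.54, SE 0.12, adjusted p = 0.0281). The airway P450 gene Cyp2f2 was at 0.12 (adjusted p = 0.668). Of 27 genes of the NRF2 oxidant response and thiol defence 1 fell and 26 were not called (median -0.11). The one that fell was Nfe2l2, which encodes NRF2 itself and is also the AhR target that fell: it was at 161, 178 and 220 CPM in air against 135, 139 and 145 CPM in smoke (-0.38, SE 0.09, adjusted p = 0.0344), with no overlap. The NRF2 target Nqo1 (0.18, adjusted p = 0.605) and the haem oxygenase gene Hmox1 (-0.40, adjusted p = 0.527) were not called. Abcb1a, an efflux pump of the blood vessel and epithelial barrier that was picked out after its values were seen, rose (0.79, SE 0.18, adjusted p = 0.0289). Adh1, Nfe2l2 and Abcb1a were no longer called without air 4, 5 and 6 (adjusted p = 0.0551, 0.0672 and 0.122), where Abcb1a was at 0.52. Of the 5 called genes of this group, Cyp1a1 and Ahrr kept their call in each fit without 1 library, and the highest adjusted p was 0.0865, for Abcb1a without smoke 5.

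Fatty acid synthesis held more increases than the other metabolic lists. In this pathway citrate or acetate is converted to cytosolic acetyl-CoA, carboxylated to malonyl-CoA, built into palmitate, desaturated and esterified into triglyceride. Of 20 genes of the synthesis list 6 rose and none fell, against 0.975% of all genes called higher. Of the 20, 17 lay above 0, and the median was 0.36. Of 19 genes of triglyceride synthesis and lipid droplets 4 rose and none fell (median 0.35). Smoke libraries stood above all air libraries in 7 genes of each list, against 1.54% of all tested genes. The summed level of the 20 synthesis genes was 2356 to 2820 CPM in air against 3600 to 10600 CPM in smoke, with the highest sums in smoke 5 and smoke 6.

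Called genes covered the chain from acetyl-CoA to the desaturase. Acss2, which makes acetyl-CoA from acetate (chromosome 2, 155517948 to 155585724, GRCm38, the deposited build for all gene coordinates here), was at 38.2, 40.3 and 48.8 CPM in air against 64.2, 76.0 and 121 CPM in smoke (0.97, SE 0.13, adjusted p = 0.00119). Acly, which makes it from citrate, was at 129, 155 and 171 CPM in air against 190, 266 and 558 CPM in smoke (1.00, SE 0.20, adjusted p = 0.0223). Neither gene overlapped between groups. The carboxylase gene Acaca (chromosome 11, 84129672 to 84401651) was at 59.7, 63.3 and 91.9 CPM in air against 111, 160 and 361 CPM in smoke (1.39, SE 0.27, adjusted p = 0.0214). The synthase gene Fasn (chromosome 11, 120805846 to 120824547) was at 175, 286 and 344 CPM in air against 552, 838 and 2467 CPM in smoke (2.03, SE 0.41, adjusted p = 0.0239). Scd1, the delta-9 desaturase (chromosome 19, 44394451 to 44407709), was at 725, 923 and 1090 CPM in air against 1353, 2268 and 5169 CPM in smoke (1.58, SE 0.27, adjusted p = 0.00875). The groups were separate in these 3 genes and smoke 5 was the highest library. Thrsp, a nuclear and cytosolic regulator of lipogenesis, was at 93.5, 113 and 132 CPM in air against 152, 236 and 289 CPM in smoke (1.04, SE 0.17, adjusted p = 0.00657).

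Esterification and droplet genes followed. Pnpla3, a lipase and acyltransferase of lipid droplets (chromosome 15, 84167837 to 84187236), was at 8.66, 12.4 and 18.4 CPM in air against 26.3, 31.3 and 36.6 CPM in smoke (1.28, SE 0.17, adjusted p = 0.00119). The groups were separate, and the smoke libraries lay close together. Agpat2, which acylates lysophosphatidic acid, rose (0.66, SE 0.13, adjusted p = 0.0168), as did the droplet biogenesis gene Bscl2 (0.35, SE 0.09, adjusted p = 0.0471) and the monoglyceride lipase gene Mgll, the fourth called member (0.43, SE 0.11, adjusted p = 0.0483). Dgat2, of the last acylation step, was at 0.57 with an adjusted p of 0.0719 although its groups did not overlap. The pentose phosphate enzyme gene Tkt, on a route that supplies NADPH, rose from 167, 184 and 196 CPM to 207, 262 and 387 CPM (0.61, SE 0.15, adjusted p = 0.0428), the only one of 12 NADPH and pentose phosphate genes called.

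Sterol synthesis held few calls, where 0.975% of all tested genes were called higher. Of its 21 genes, Insig1, which retains the sterol sensor complex in the endoplasmic reticulum (0.52, SE 0.11, adjusted p = 0.0251), and Nsdhl, a demethylation enzyme (0.45, SE 0.10, adjusted p = 0.0263), rose, while the median was 0.05. No gene of 21 in fatty acid oxidation was called by edgeR (median 0.27, 20 above 0), though 15 had an unadjusted p below 0.05 and DESeq2 called 7 and voom 7. Of 22 glycolysis genes none was called (median 0.20), with 6 at an unadjusted p below 0.05, 0 by DESeq2 and 1 by voom. In the nuclear respiratory chain list 1 of 32 rose, the succinate dehydrogenase gene Sdha (0.36, SE 0.09, adjusted p = 0.0483). Txnip, an arrestin that restrains glucose uptake, rose as well (0.51, SE 0.12, adjusted p = 0.0359), with overlapping groups.

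Other metabolic enzymes rose beside these lists. Nat8l, which makes N-acetylaspartate, was at 3.01, 4.03 and 5.81 CPM in air against 6.92, 9.61 and 14.9 CPM in smoke (1.26, SE 0.20, adjusted p = 0.00569). Ppp1r3b, which targets protein phosphatase 1 to glycogen, was at 7.91, 10.4 and 13.7 CPM in air against 14.4, 20.3 and 31.0 CPM in smoke (1.00, SE 0.16, adjusted p = 0.00641). The groups did not overlap in either gene. Pcx, which encodes the pyruvate carboxylase that refills the citrate pool (0.91, SE 0.21, adjusted p = 0.0394), and Mccc1, of the leucine pathway (0.42, SE 0.08, adjusted p = 0.013), also rose and were picked out after their values were seen.

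White adipocyte genes lay mostly above 0 beside this group, with 2 calls, where 0.975% of all tested genes were called higher. Of 16 white adipocyte genes 2 rose, the beta-3 adrenergic receptor gene Adrb3 (0.84, SE 0.20, adjusted p = 0.0429) and the glycerol channel gene Aqp7 (0.85, SE 0.19, adjusted p = 0.0289), with 15 of 16 above 0 and a median of 0.31. The defining adipokine gene Adipoq was at 74.9, 80.1 and 104 CPM in air against 81.7, 97.8 and 111 CPM in smoke (0.22, adjusted p = 0.384). The list summed to 2680 to 3393 CPM in air against 3021 to 4012 CPM in smoke. The mean log2 CPM of the same genes, which weights them equally and was centred over the 18 libraries, was -0.199 to 0.013 in air and 0.098 to 0.404 in smoke, without overlap. Smoke 5, which had the most Fasn, had the highest centred mean and a sum of 3402 CPM. Brown adipocyte genes had no call among 12 in edgeR, with 4 at an unadjusted p below 0.05, 1 by DESeq2 and 0 by voom, and Ucp1 was at 0.29 (adjusted p = 0.643). In a fit with 4 tissue scores as covariates (fast muscle, cartilage, thyroid follicle and white adipocytes), which called 3 genes in all, the log2 fold change was 0.42 for Fasn (adjusted p = 0.795), 0.62 for Scd1 (0.511), 0.72 for Acss2 (0.307) and 1.19 for Pnpla3 (0.189), and the synthesis median was 0.10. Whether adipocyte content took part in the lipid changes was not tested beyond these values.

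Several of these genes also differed from the e-cigarette group, which shares the smoke libraries with the test against air. Of all 171 genes that rose, 31 (18.1%) were also higher than after e-cigarette, where 16.5% of tested genes were called in either direction. Of the 108 that fell, 34 (31.5%) were also lower. In e-cigarette against air, which shares the air libraries, 129 of the 171 (75.4%) were called higher and 53 of the 108 (49.1%) lower. That comparison called 25.1% of tested genes. Against e-cigarette the difference was 1.61 for Fasn (adjusted p = 0.0116), 1.29 for Scd1 (0.00283), 0.92 for Acaca (0.0233), 0.72 for Acly (0.0187), 0.85 for Thrsp (0.00229) and 0.60 for Pnpla3 (0.0165). It was 0.73 for Agpat2 (0.000559), 0.93 for Mgll (3.52e-05), 0.71 for Tkt (0.00254) and 1.19 for Nat8l (0.000494). Adipoq differed from e-cigarette too (0.53, adjusted p = 0.0115). Acss2 at 0.17 (0.389), Insig1 at -0.03 (0.883) and Ppp1r3b at -0.11 (0.678) did not pass this test. Against air, 7 of the 21 called genes of this metabolic group were called in each fit without 1 library (Acss2, Scd1, Thrsp, Pnpla3, Nat8l, Ppp1r3b and Mccc1), and the highest adjusted p was 0.129, for Mgll without smoke 5. Without air 4, 5 and 6 these 7 and Acaca, Agpat2 and Nsdhl were called. Fasn was then at 1.74 (adjusted p = 0.12), and Bscl2 and Aqp7 were at 0.20 and 0.56 (0.27 and 0.163).

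**Figure D2:**
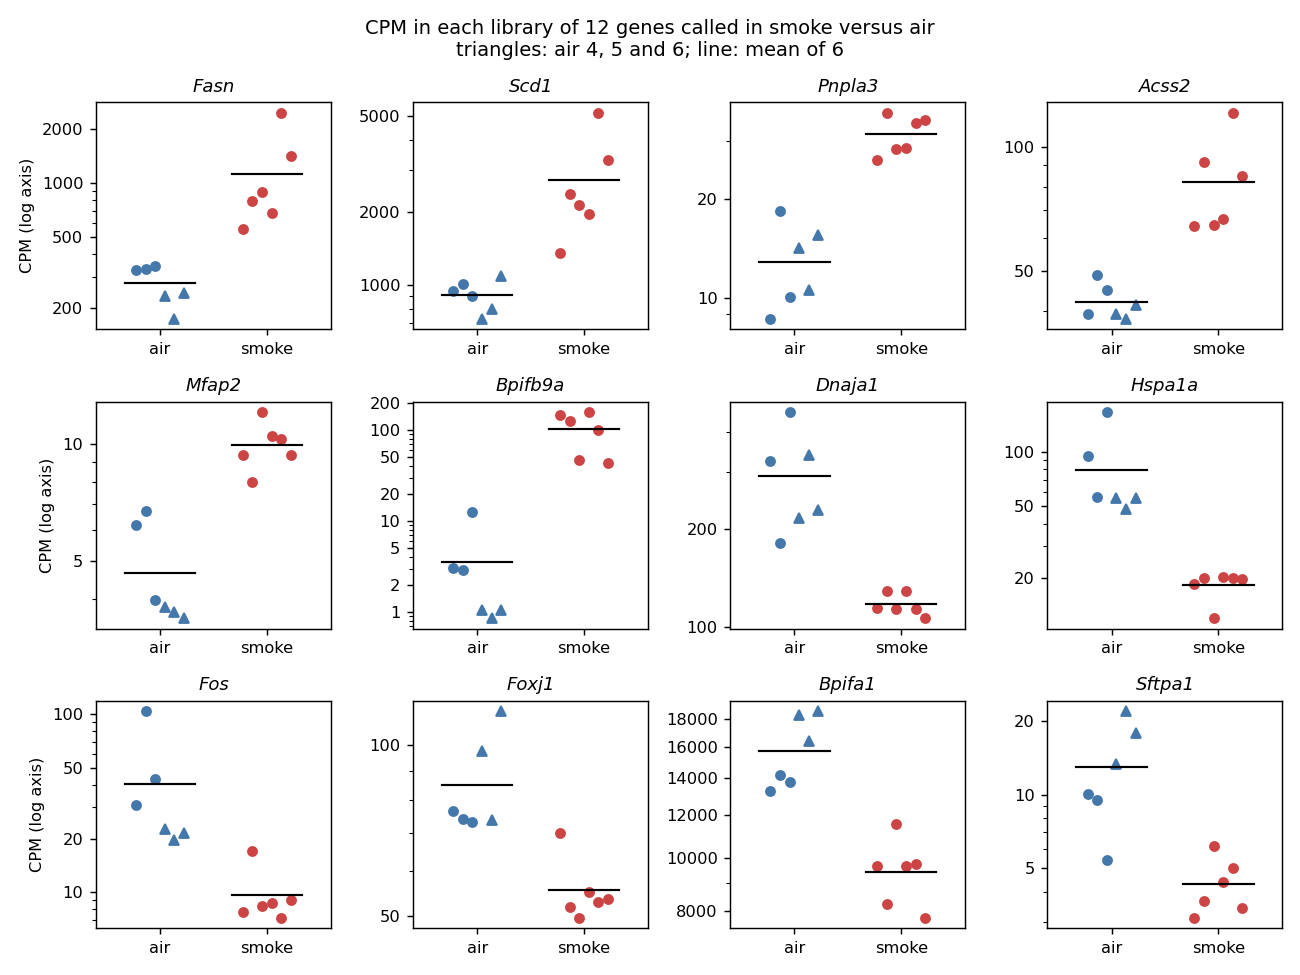
CPM on a log axis in each air (blue) and smoke (red) library for 12 called genes, with triangles for air 4, 5 and 6 and a line at the mean of 6. The lipid genes Fasn, Scd1, Pnpla3 and Acss2 lie above all air libraries in each smoke library, and Dnaja1, Hspa1a, Fos, Foxj1 and Bpifa1 lie below them, while Sftpa1 overlaps through air 3.

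The largest increases among the named called genes were in members of the glandular acinar list. Of 21 glandular acinar genes 4 rose and none fell, against 0.975% of all genes called higher. Of the 21, 20 lay above 0, and the median was 1.41. Bpifb9a, a secreted lipid-binding protein gene (chromosome 2, 154257854 to 154271245), was at 0.854, 1.99 and 12.6 CPM in air against 43.1, 113 and 158 CPM in smoke (4.86, SE 0.67, adjusted p = 0.00565). Cst10, a cystatin (chromosome 2, 149405057 to 149410293), was at 0, 0.0321 and 0.633 CPM in air against 1.51, 7.97 and 16.1 CPM in smoke (5.64, SE 0.79, adjusted p = 0.00533). Every smoke library lay above every air library, the 3 air libraries rich in gland transcripts included. Pip, the prolactin-induced protein of exocrine glands, was at 0, 1.12 and 2.50 CPM in air against 7.82, 10.2 and 13.5 CPM in smoke (3.17, SE 0.63, adjusted p = 0.0239). Smgc, a submandibular gland protein gene, was at 0, 0.753 and 1.54 CPM in air against 2.08, 3.47 and 6.06 CPM in smoke (2.22, SE 0.46, adjusted p = 0.0251). Reads of Bpifb9a can be shared with its close paralogs. The tissue source of the Cst10 reads was not tested, and cartilage content also differed between the libraries. With the cartilage score as covariate Cst10 was at 6.32 (adjusted p = 0.0166), and with the gland score at 4.345 (0.0409).

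The low gland content of air 4, 5 and 6 stood beside these values. Without these 3 libraries the list median was 0.50 instead of 1.41, and the 4 genes were still called, with Bpifb9a at 4.04 (adjusted p = 0.022), Cst10 at 4.95 (0.0308), Pip at 2.50 (0.0498) and Smgc at 1.43 (0.0231). Lpo, the lactoperoxidase gene of the same glands, was at 16.7 to 22.6 CPM in air 1, 2 and 3 and at 32.7 to 63.3 CPM in smoke, with no overlap, but its adjusted p was 0.0994 over all libraries and 0.161 without air 4, 5 and 6. The mucin genes Muc5b (1.18, adjusted p = 0.316) and Muc5ac (0.96, adjusted p = 0.0724) were not called. Cst10 was higher than after e-cigarette (2.45, adjusted p = 0.00917), whereas for Bpifb9a (1.55, adjusted p = 0.0737) and Pip (-0.67, adjusted p = 0.432) this was not shown. Bpifb9a and Cst10 were called in each fit without 1 library, and the highest adjusted p was 0.0688, for Smgc without smoke 5.

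Matrix genes of the connective tissue leaned upward together. Of 41 genes of fibrillar and microfibril matrix 3 rose and none fell, against 0.975% of all genes called higher. Of the 41, 39 lay above 0, and the median was 0.59. Mfap2, a microfibril protein that binds fibrillin (chromosome 4, 141010418 to 141015984), was at 3.56, 3.89 and 6.73 CPM in air against 7.98, 9.83 and 12.1 CPM in smoke (1.09, SE 0.20, adjusted p = 0.0128). Fbn1, fibrillin itself, was at 38.2, 45.8 and 64.1 CPM in air against 66.0, 78.9 and 121 CPM in smoke (0.86, SE 0.18, adjusted p = 0.023). The groups did not overlap in either gene. Col5a3, a chain of the collagen that nucleates fibrils, was at 12.2, 18.9 and 25.0 CPM in air against 26.5, 30.1 and 36.6 CPM in smoke (0.72, SE 0.16, adjusted p = 0.0289). The fibril collagen Col1a1 was at 0.86 without a call (adjusted p = 0.12).

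Neighbouring lists held 1 or 2 calls each, where 0.975% of all tested genes were called higher. In the basement membrane list 1 of 24 rose, the endothelial laminin chain Lama4 (0.79, SE 0.17, adjusted p = 0.0251). Of 27 Wnt and Hedgehog genes 2 rose, the secreted Wnt antagonist Sfrp1 (0.59, SE 0.12, adjusted p = 0.0204) and the receptor Fzd2 (0.77, SE 0.16, adjusted p = 0.0223), and of 29 TGF-beta and BMP genes the ligand Tgfb2 rose (0.72, SE 0.18, adjusted p = 0.0453). Tek, the angiopoietin receptor, was the 1 of 24 endothelial genes called, at 17.8, 21.7 and 25.4 CPM in air against 26.3, 29.6 and 32.9 CPM in smoke (0.45, SE 0.09, adjusted p = 0.0214). Zim1, an imprinted zinc finger gene, was at 2.63, 3.68 and 4.91 CPM in air against 6.31, 6.67 and 7.82 CPM in smoke (0.89, SE 0.14, adjusted p = 0.00569). No gene of a list of 15 imprinted growth genes was called by edgeR (4 at an unadjusted p below 0.05, 2 by DESeq2, 2 by voom), although their summed level was 663 to 709 CPM in air against 794 to 918 CPM in smoke. Fendrr, a long noncoding RNA of lateral mesoderm, rose about 2-fold (0.99, SE 0.24, adjusted p = 0.0444) with overlapping groups. Its call was lost without air 4, 5 and 6 (0.53, adjusted p = 0.225), and without air 1, 2 and 3 it was at 1.62 (0.000689).

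Cartilage transcripts lay mostly above 0, as the matrix list did. Among the 22 cartilage genes edgeR made no call, but 13 had an unadjusted p below 0.05, DESeq2 called 3 and voom 11, and 21 lay above 0 with a median of 1.02. Acan, the cartilage proteoglycan, was at 6.09, 50.4 and 141 CPM in air against 50.2, 110 and 255 CPM in smoke (1.09, adjusted p = 0.414). Smooth muscle genes were likewise low in air 4, 5 and 6, at a summed 934 to 1180 CPM against 1653 to 1977 CPM in smoke. Without these 3 air libraries the matrix median was 0.43 and the cartilage median 0.38. Of the 9 called genes of this group Fbn1 (0.94, adjusted p = 0.0449) and Zim1 (0.96, 0.0141) were then called. Mfap2 was at 0.80 (0.0794) and Col5a3 at 0.36 (0.13). With the 4 tissue scores as covariates, cartilage among them, the matrix median was -0.16. Mfap2 and Zim1 were called in each fit without 1 library, and the highest adjusted p was 0.119, for Tgfb2 without smoke 5. Col5a3 was higher than after e-cigarette (0.89, adjusted p = 0.000784), and Mfap2 (0.01, 0.982) and Fbn1 (0.10, 0.754) were not called there.

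**Figure D3:**
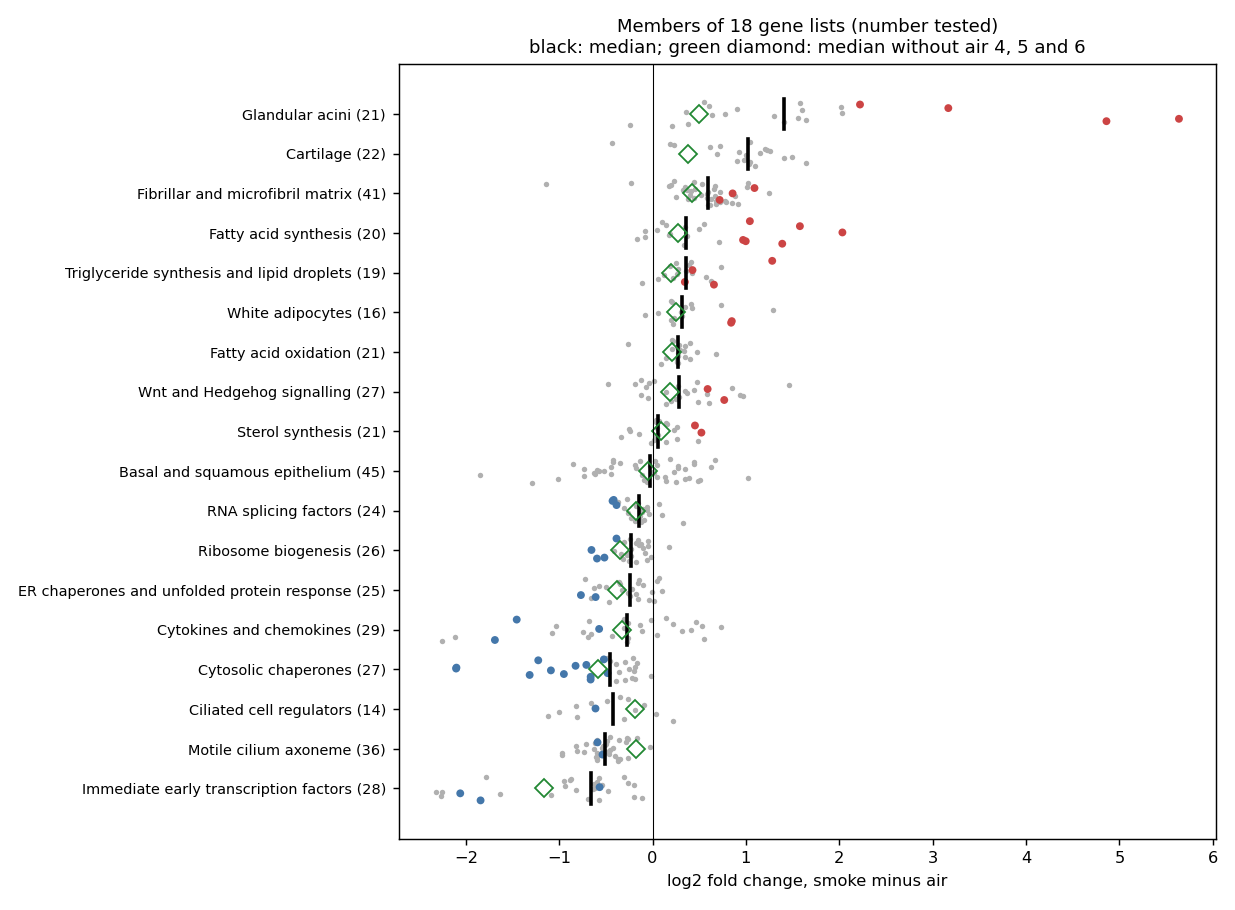
Log2 fold changes, smoke minus air, of the tested members of 18 gene lists (number tested in parentheses), with called members in red or blue, a black bar at the median and a green diamond at the median without air 4, 5 and 6. No member of the cytosolic chaperone, axoneme or immediate early list lies above 0; without the 3 air libraries the gland median goes from 1.41 to 0.50, the axoneme median from -0.51 to -0.18 and the immediate early median from -0.66 to -1.16.

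Cytosolic chaperones were the list with the most decreases. These proteins hold and refold clients: HSP90 and HSP70 bind them in ATP-driven cycles, J-domain proteins deliver them to HSP70, and nucleotide exchange factors release them. Heat shock factor 1 induces many of their genes through repeats of the unit nGAAn in alternating orientation. Of 27 tested members 12 fell and none rose, against 0.616% of all genes called lower, and all 27 lay below 0, with a median of -0.45. As the list was chosen with earlier results of these data known, this contrast is a description and not a test. The summed level was 5718 to 10180 CPM in air, highest in air 1 and air 3, and 5017 to 5464 CPM in smoke, without overlap.

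Dnaja1, a J-domain partner of HSP70 (chromosome 4, 40722150 to 40737149), was at 182, 278 and 462 CPM in air against 106, 114 and 129 CPM in smoke (-1.32, SE 0.17, adjusted p = 0.00119). Hsph1, the HSP110 exchange factor (chromosome 5, 149614287 to 149636376), was at 110, 193 and 347 CPM in air against 84.4, 89.9 and 101 CPM in smoke (-1.22, SE 0.19, adjusted p = 0.00569). The smoke libraries lay close together below all air libraries, which were spread more widely. Hsp90aa1, the inducible HSP90 (chromosome 12, 110690605 to 110702728), was at 346, 734 and 902 CPM in air against 299, 321 and 382 CPM in smoke (-1.09, SE 0.17, adjusted p = 0.00565). Its groups overlapped only through air 2. The inducible HSP70 genes Hspa1a (48.0, 55.9 and 165 CPM in air; 12.0, 19.8 and 20.4 CPM in smoke; -2.10, SE 0.34, adjusted p = 0.00737) and Hspa1b (112, 137 and 514 CPM in air; 36.4, 50.6 and 70.9 CPM in smoke; -2.10, SE 0.41, adjusted p = 0.023) fell together. These copies are nearly identical, so reads can be divided between them in an uncertain way.

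The constitutive HSP70 gene Hspa8 fell less (-0.71, SE 0.17, adjusted p = 0.0368), from 1069, 1466 and 2492 CPM to 953, 1039 and 1079 CPM, with overlap. Dnajb1 fell by 0.95 (adjusted p = 0.00617), Hspa4l by 0.82 (0.00737), and the HSP90 co-chaperones Cacybp by 0.66 (0.00737), Chordc1 by 0.66 (0.0136) and Ptges3 by 0.52 (0.0205). Dnajb4 fell by 0.48 (adjusted p = 0.0136). Chordc1, Ptges3 and Dnajb4 were named because they complete the 12. Ahsa2, related to the activator of the HSP90 ATPase, fell by 0.66 (adjusted p = 0.00569), and Coq10b, a mitochondrial coenzyme Q binding protein gene, by 0.91 (adjusted p = 0.0101).

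Promoter windows of 300 bases (250 before to 50 after each RefSeq start, GRCm38.p6) were read for 10 of the 12 chaperones that fell, and they are shown because these genes moved together. The 13-base form of the heat shock element (GAA, TTC and GAA, or TTC, GAA and TTC, with NN between units) occurred in 2 of the 10, against 0.603% of all 32851 windows. Its 8-base part (GAANNTTC or TTCNNGAA), which the longer form contains, occurred in 6 of the 10, against 15.1% of windows. Both strands were searched. A gene with more than 1 window counted if any of them matched, whereas the shares are per window. The nearly identical Hspa1a and Hspa1b were counted separately. Chaperones that were not called were not read, so these counts cannot set the called genes apart from the rest of the list. The stretches below are 30 bases each, on the gene's strand, with the match in capitals; Chordc1 and Hsph1 show the 13-base form and the others the 8-base part. A match is a description of the letters and not evidence of binding.
Hsph1, chr5:149636279-149636308, minus strand: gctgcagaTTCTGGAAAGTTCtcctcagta
Chordc1, chr9:18292260-18292289, plus strand: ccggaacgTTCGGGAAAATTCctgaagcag
Dnaja1, chr4:40722333-40722362, plus strand: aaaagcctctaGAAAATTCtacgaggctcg
Dnajb4, chr3:152193841-152193870, minus strand: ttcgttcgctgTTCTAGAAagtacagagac
Hspa1a, chr17:34972242-34972271, minus strand: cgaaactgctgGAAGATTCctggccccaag
Hspa1b, chr17:34959324-34959353, minus strand: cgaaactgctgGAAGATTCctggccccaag

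The printed stretches of Hspa1a and Hspa1b are the same letter for letter, at position -104 from each start, and both genes had the same log2 fold change of -2.10. In Hsph1 and Chordc1, which fell by 1.22 and 0.66, the printed 13-base match is the one nearest a start, at positions 16 and 2. Chordc1 also held overlapping matches at positions -4 and 7, and the Hsph1 match lies at position 37 from another start. The 8-base part was not found in the windows of Dnajb1, Cacybp, Hspa4l and Ptges3, which fell by 0.52 to 0.95. The Dnajb4 match, from base 152193852, belongs to a RefSeq start inside the gene (152178511 to 152210302). The Dnajb4 window around base 152210119, near the 5' end of the gene, held no such match. The Dnaja1 match, from base 40722344, likewise lies inside the gene (40722150 to 40737149). Dnaja1 windows around base 40722905 held no such match. Of the 3 called AhR targets, Cyp1a1 and Ahrr held the core GCGTG, which 32.4% of all windows hold. None of 5 called fatty acid synthesis genes with a window held the E-box CACGTG (7.15% of windows), and 4 held CCAAT (37.4%).

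The unfolded protein response answers misfolding in the endoplasmic reticulum. Of its 25 genes 2 fell, against 0.616% of all genes called lower, none rose and 21 lay below 0 (median -0.24). Ddit3, the transcription factor CHOP, was at 26.0, 35.2 and 44.0 CPM in air against 18.6, 22.5 and 28.1 CPM in smoke (-0.61, SE 0.12, adjusted p = 0.0223), and the lumenal J-domain gene Dnajb9 fell by 0.77 (SE 0.16, adjusted p = 0.0223). The groups overlapped in both. Hspa5, the lumenal HSP70, was at -0.62 (adjusted p = 0.0592). Without air 4, 5 and 6 all 16 called genes named here were called (highest adjusted p 0.0408, for Hspa4l), and 11 of 16 were called in each fit without 1 library (highest adjusted p 0.0838, for Hspa8 without smoke 5). Without air 1, 2 and 3 Hspa1b was at -1.30 and Hspa8 at -0.45, still called (adjusted p = 0.0222 and 0.013). Against e-cigarette, Hsp90aa1 (-0.60, adjusted p = 0.0166) and Hsph1 (-0.72, 0.0134) were lower, and Dnaja1 (-0.35, 0.17), Hspa1a (-0.29, 0.594) and Dnajb1 (-0.39, 0.0893) did not pass.

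Ribosome biogenesis and splicing each held a few decreases, where 0.616% of all tested genes were called lower. Of 26 ribosome biogenesis genes 4 fell, none rose and 25 lay below 0 (median -0.23). They were Nop58, a core protein of box C/D particles (-0.65, SE 0.15, adjusted p = 0.0289), the nucleolar GTPase gene Gnl3 (-0.59, SE 0.14, adjusted p = 0.0421), Wdr12 of large-subunit maturation (-0.39, SE 0.09, adjusted p = 0.0368) and Heatr1 of rRNA transcription (-0.52, SE 0.13, adjusted p = 0.0442). Gnl3 was at 36.4 to 42.0 CPM in 5 air libraries, 73.6 CPM in air 3 and 25.1, 30.8 and 32.3 CPM (lowest, median and highest) in smoke. Its groups did not overlap, while those of Nop58, Wdr12 and Heatr1 did. Of 24 splicing factors 3 fell, Srsf3 (-0.39, SE 0.08, adjusted p = 0.0282), Tra2a (-0.43, SE 0.09, adjusted p = 0.0251) and Tra2b (-0.42, SE 0.09, adjusted p = 0.0289), each with no overlap between groups. Tra2a and Tra2b encode related activators of exon inclusion.

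Kpna2, an importin that carries proteins into the nucleus and was picked out after its values were seen, was at 38.7, 46.0 and 56.8 CPM in air against 27.7, 31.8 and 35.9 CPM in smoke (-0.56, SE 0.10, adjusted p = 0.0114). It was also lower than after e-cigarette (-0.52, adjusted p = 0.00179) and was the only 1 of the 9 called genes in this group that was called in each fit without 1 library. The highest adjusted p was 0.0969, for Gnl3 without smoke 5. Pcna, the DNA polymerase clamp, fell (-0.44, SE 0.10, adjusted p = 0.0282) as the only 1 of 32 cell cycle genes called, and the proliferation marker Mki67 was at 0.35 (adjusted p = 0.561). The calls of Wdr12 and Heatr1 were lost without air 4, 5 and 6 (adjusted p = 0.113 and 0.128). No gene of 34 for ribosomal proteins was called by edgeR (1 at an unadjusted p below 0.05, 0 by DESeq2 and voom), though all 34 lay below 0 (median -0.19). With total counts alone the median over all genes was -0.05, a shift to be held against list medians of this size.

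**Figure D4:**
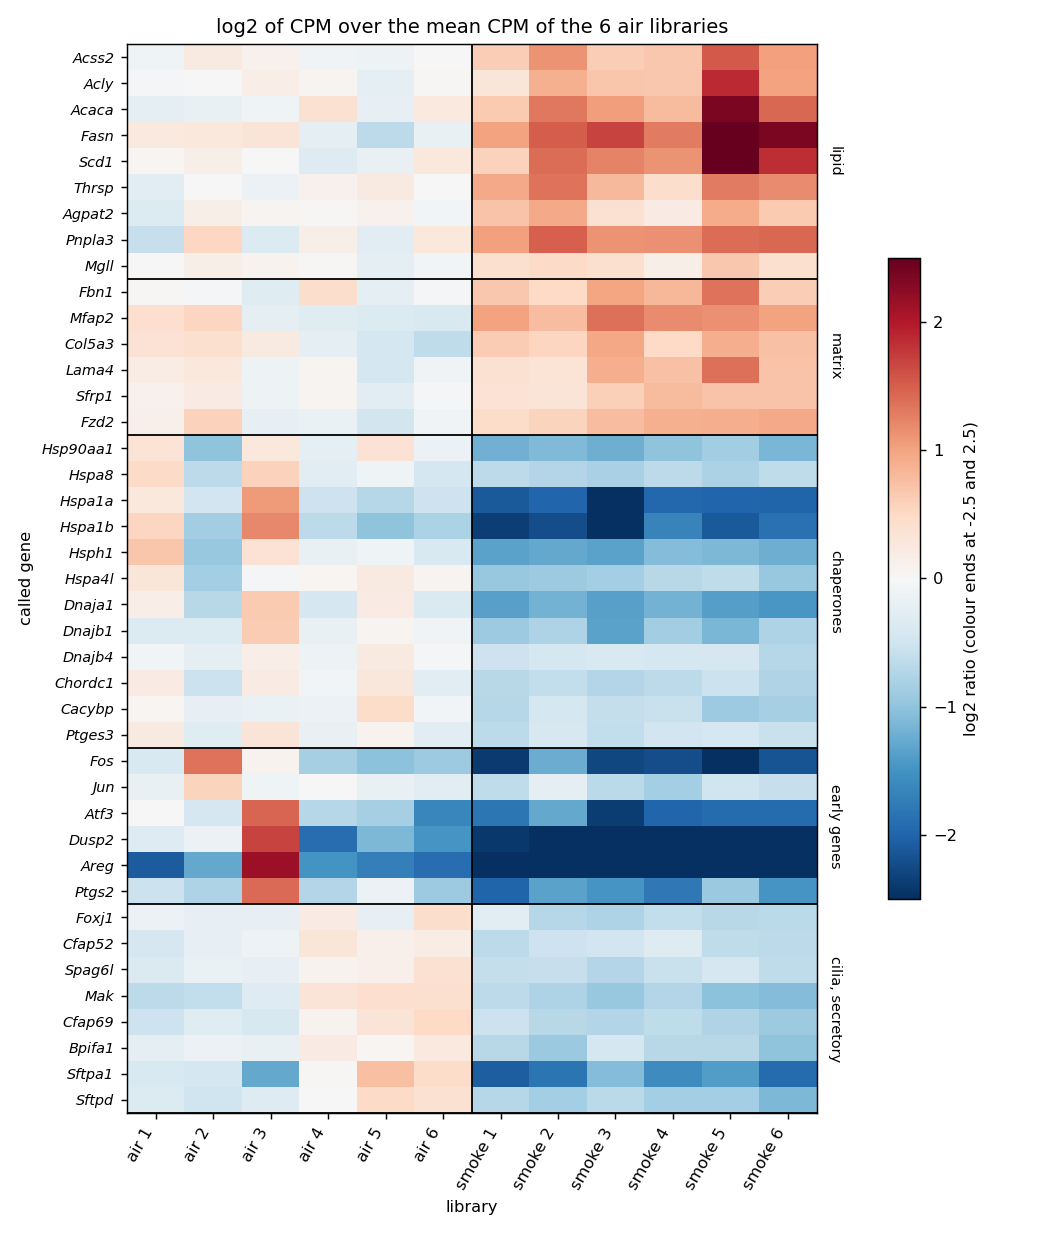
Log2 of CPM over the mean CPM of the 6 air libraries for 41 called genes (rows) in each of 12 libraries (columns), red higher and blue lower, with the colour ending at -2.5 and 2.5. Fasn, Scd1, Acaca and Acly are highest in smoke 5, Hspa1a, Hspa1b and Hspa8 are highest in air 3, early genes are high in air 3 and, for Fos and Jun, in air 2, and Spag6l, Mak, Cfap69 and Cfap52 are highest in air 4, 5 and 6.

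Immediate early genes, which answer growth factor and stress signals within minutes without new protein, were lower in smoke but very uneven in air. Of 28 early transcription factors 3 fell, against 0.616% of all genes called lower, and all 28 lay below 0 (median -0.66). Fos was at 19.7, 26.8 and 104 CPM in air against 7.19, 8.51 and 17.0 CPM in smoke (-2.06, SE 0.43, adjusted p = 0.0282). Atf3 was at 6.84, 14.4 and 58.1 CPM in air against 4.11, 5.58 and 8.69 CPM in smoke (-1.84, SE 0.40, adjusted p = 0.0294). Air 2 was highest for Fos and air 3 for Atf3, and only Fos was without overlap. Jun fell by 0.57 (SE 0.14, adjusted p = 0.0474). Egr1 had a larger difference than these (-2.27) but, at 23.6 to 331 CPM in air against 20.6 to 27.7 CPM in smoke, did not pass (adjusted p = 0.053).

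Single genes of MAP kinase feedback and of the EGF family fell as well, where 0.616% of all tested genes were called lower. Dusp2, a nuclear MAP kinase phosphatase, was at 28.5, 67.1 and 344 CPM in air against 12.0, 15.0 and 20.03 CPM in smoke (-2.80, SE 0.62, adjusted p = 0.0374). Areg, the EGF receptor ligand amphiregulin, was at 1.44 to 2.53 CPM in 5 air libraries, 27.1 CPM in air 3 and 0.338, 0.663 and 1.02 CPM (lowest, median and highest) in smoke (-3.19, SE 0.73, adjusted p = 0.0386). Both genes were lower in every smoke library than in any air library. Without air 3, Areg was at -1.55 (adjusted p = 0.011). Crem, a transcription factor of the cAMP response, fell by 0.60 (SE 0.15, adjusted p = 0.0476). Among 20 MAP kinase feedback genes Dusp2 was the only call, and among 14 genes of the EGF family Areg was.

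Inflammatory genes held few calls. Of 29 cytokine, chemokine and mediator genes 3 fell and none rose (median -0.27), against 0.616% of all genes called lower. Cxcl16, a membrane-anchored chemokine and scavenger receptor, was at 21.2, 24.0 and 34.3 CPM in air against 15.4, 17.6 and 19.8 CPM in smoke (-0.57, SE 0.12, adjusted p = 0.0281), without overlap. Ptgs2, the inducible cyclooxygenase, was at 2.75, 3.32 and 13.8 CPM in air against 1.28, 1.86 and 2.71 CPM in smoke (-1.45, SE 0.35, adjusted p = 0.0429), and without air 3 it was at -0.88 (adjusted p = 0.046). The chemokine gene Ccl20 fell by 1.69 (SE 0.40, adjusted p = 0.0421) and was lower than after e-cigarette too (-1.55, adjusted p = 0.0123). Il1b was at -0.26 (adjusted p = 0.755). A further 6 lists of immune genes gave no call in edgeR. Unadjusted p-values below 0.05 were found in 3 of 20 genes of NF-kB feedback, 1 of 28 interferon-stimulated genes, 2 of 14 of MHC class II presentation, 7 of 20 of macrophages, 2 of 14 of T cells and 2 of 8 of neutrophils. DESeq2 called 3, 0, 0, 0, 1 and 0 of these lists, and voom 1, 0, 0, 1, 0 and 1. The antiviral gene Isg15 was at -0.06 (adjusted p = 0.927) and Cd74, the class II invariant chain, at -0.39 (0.282).

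Hdc, which makes histamine, had the opposite sign to the other mast cell genes. It was at 17.6, 22.1 and 34.5 CPM in air against 11.4, 14.2 and 18.4 CPM in smoke (-0.71, SE 0.18, adjusted p = 0.0494), with overlap, whereas the other 8 tested mast cell genes lay above 0 and were not called by edgeR, and the list median was 0.60. Of the 9 genes, 7 had an unadjusted p below 0.05, DESeq2 called 4 and voom 3. Hdc was also lower than after e-cigarette (-1.18, adjusted p = 0.000205). Hdc without those 3 libraries (air 4, 5 and 6) was at -0.42 (adjusted p = 0.24). None of the 10 called genes of the early and inflammatory group was called in each fit without 1 library, and the highest adjusted p was 0.109, for Hdc without air 5. Without air 4, 5 and 6 the early list median was -1.16 and 8 of the 10 were called; without air 1, 2 and 3 the median was -0.11, with Fos at -1.15 (adjusted p = 0.0385), Atf3 at -0.85 (0.0281) and Dusp2 at -1.34 (0.0911).

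Ciliated cell genes lay mostly below 0 with few calls. Motile cilia are built on the axoneme, a ring of microtubule doublets with dynein arms around a central pair, and Foxj1 is the transcription factor that switches on their genes. Of 36 axoneme genes 2 fell, none rose and all 36 lay below 0 (median -0.51), and of 14 ciliated cell regulators 1 fell (median -0.42). Of all tested genes 0.616% were called lower. The axoneme sum was 1304 to 1881 CPM in air, highest in air 4, 5 and 6, and 1033 to 1300 CPM in smoke. Foxj1 (chromosome 11, 116330704 to 116335399) was at 73.3, 75.3 and 115 CPM in air against 49.7, 53.2 and 69.9 CPM in smoke (-0.61, SE 0.13, adjusted p = 0.0281). Spag6l, of the central pair, was at 10.9, 13.6 and 18.1 CPM in air against 8.33, 9.27 and 10.3 CPM in smoke (-0.59, SE 0.15, adjusted p = 0.0474). Neither gene overlapped between groups. Cfap52, a protein of the doublet lumen, fell by 0.54 (SE 0.13, adjusted p = 0.0435). Mak, a kinase of ciliary length (-0.86, SE 0.19, adjusted p = 0.0285), and Cfap69 (-0.71, SE 0.16, adjusted p = 0.0296) fell also and were picked out after their values were seen.

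The surface secretory genes that fell encode proteins of innate defence. Of 27 airway secretory genes 3 fell, against 0.616% of all genes called lower, none rose and the median was 0.12. Bpifa1, an abundant secreted protein that binds lipopolysaccharide (chromosome 2, 154142880 to 154149219), was at 13240, 15270 and 18560 CPM in air against 7789, 9688 and 11550 CPM in smoke (-0.73, SE 0.15, adjusted p = 0.0239). The collectin genes fell with it, Sftpa1 from 5.39, 11.7 and 22.03 CPM to 3.13, 4.03 and 6.14 CPM (-1.60, SE 0.30, adjusted p = 0.0136) and Sftpd from 33.5, 42.7 and 66.5 CPM to 21.7, 26.3 and 29.6 CPM (-0.84, SE 0.19, adjusted p = 0.0345). Only Sftpa1 overlapped, through air 3. Itln1, a lectin that binds microbial sugars, was at 17.9, 24.5 and 39.0 CPM in air against 10.1, 12.5 and 16.2 CPM in smoke (-1.10, SE 0.23, adjusted p = 0.0265), without overlap. The club cell gene Scgb1a1 was at -0.46 (adjusted p = 0.405).

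The calls of these decreases rested on the air libraries with little gland and cartilage RNA, while the signs stayed negative without them. Without air 4, 5 and 6 none of the 9 called ciliary and secretory genes was called: Foxj1 was at -0.45 (adjusted p = 0.0876), Spag6l at -0.37 (0.239), Cfap52 at -0.31 (0.24), Mak at -0.36 (0.243), Cfap69 at -0.33 (0.214), Bpifa1 at -0.56 (0.108), Sftpa1 at -0.98 (0.071), Sftpd at -0.48 (0.181) and Itln1 at -0.85 (0.0666). The axoneme median was then -0.18. Without air 1, 2 and 3 it was -0.80, with Foxj1 at -0.79 (adjusted p = 0.0038) and Bpifa1 at -0.92 (0.00398). With the 4 tissue scores as covariates the axoneme median was 0.03, Foxj1 was at -0.21 (adjusted p = 0.744) and Bpifa1 at -0.15 (0.862). With the gland score alone the axoneme median was -0.13. Sftpa1 alone was called in each fit without 1 library, and the highest adjusted p was 0.103, for Spag6l without air 5. Against the e-cigarette libraries, in a test that shares the smoke libraries with that against air, Foxj1 was lower in smoke, at -0.56 (adjusted p = 0.0066), as were Spag6l at -0.99 (0.000176), Mak at -0.82 (0.00564), Cfap69 at -0.83 (0.00145) and Itln1 at -1.33 (0.000828). Bpifa1 (-0.50, adjusted p = 0.0306), Sftpa1 (-1.13, 0.013) and Sftpd (-0.69, 0.0182) were lower as well, and Cfap52 (-0.30, 0.123) did not pass.

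Junction, transport and muscle genes gave scattered calls, where 1.59% of all tested genes were called. Cldn11, a claudin of tight junction strands (chromosome 3, 31149920 to 31164324), was at 0.128, 0.232 and 0.643 CPM in air against 0.766, 1.07 and 1.58 CPM in smoke (1.86, SE 0.34, adjusted p = 0.0128), and Cldn1 rose with overlap (0.61, SE 0.15, adjusted p = 0.0428). The median of their 25-gene list was -0.02. Adcy8, a calcium-stimulated adenylyl cyclase, was at 0.512, 1.67 and 3.91 CPM in air against 4.10, 4.84 and 8.74 CPM in smoke (1.71, SE 0.39, adjusted p = 0.0367). Adcy8 was at 1.03 without air 4, 5 and 6 (adjusted p = 0.111). The carbonic anhydrase gene Car12 (0.78, SE 0.17, adjusted p = 0.0265), Casq2, which stores calcium in slow and cardiac muscle (0.76, SE 0.14, adjusted p = 0.0147), and Acp5, the acid phosphatase of osteoclasts (0.45, SE 0.10, adjusted p = 0.0282), rose, each the 1 call of its list. Tmem179 rose too (1.496, SE 0.30, adjusted p = 0.0213). Slc5a3, the myo-inositol transporter, fell from 102, 164 and 261 CPM to 87.5, 95.0 and 101 CPM (-0.87, SE 0.21, adjusted p = 0.0424), and it was higher than after e-cigarette (1.13, adjusted p = 0.00123). Of these 8 genes Cldn11 and Slc5a3 were called without air 4, 5 and 6, and Cldn11 and Casq2 in each fit without 1 library. The highest adjusted p was 0.104, for Cldn1 without smoke 5.

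**Figure D5:**
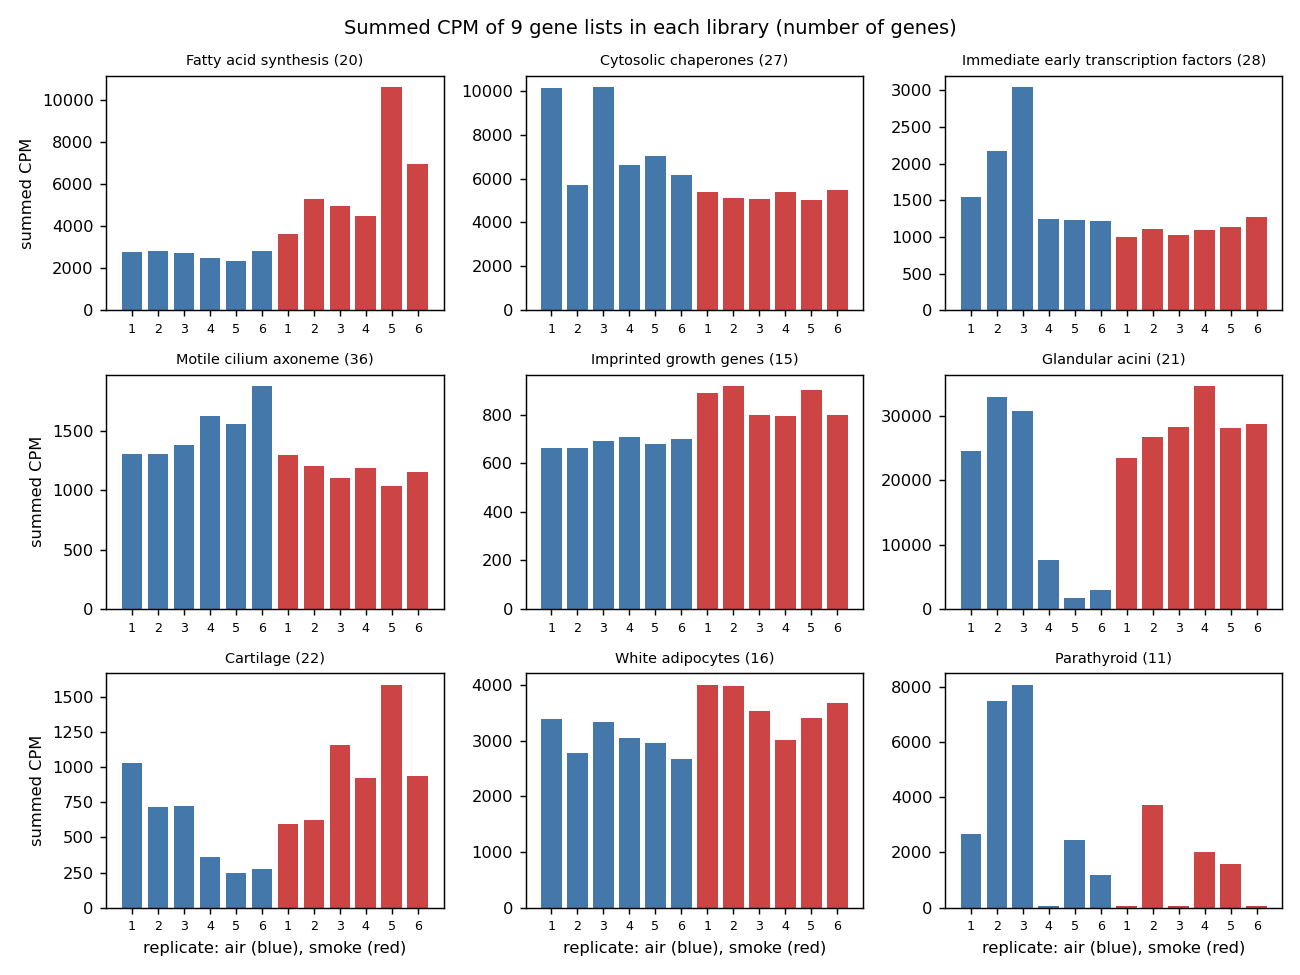
Summed CPM of 9 gene lists in each library, air in blue and smoke in red, with the number of genes in parentheses. Smoke sums for fatty acid synthesis (3600 to 10600) lie above all air sums (2356 to 2820) and chaperone sums lie below, while gland and cartilage sums are low in air 4, 5 and 6 and parathyroid sums are near 0 in air 4 and smoke 1, 3 and 6.

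Large parts of the transcriptome gave no call in this comparison. None of 45 genes of basal and squamous epithelium was called by edgeR (median -0.02, 7 at an unadjusted p below 0.05, 4 by DESeq2, 1 by voom), with the basal keratin Krt5 at 319, 541 and 928 CPM in air against 288, 648 and 871 CPM in smoke (0.00, SE 0.29, adjusted p = 0.996) and Krt13 at 0.13 (SE 0.42, adjusted p = 0.9). No call was made by edgeR in 5 further lists. Unadjusted p-values below 0.05 were found in 6 of 24 p53 response genes, 11 of 22 glucocorticoid response genes, 3 of 20 clock genes, 5 of 20 retinoid genes and 4 of 17 metallothionein and metal genes. DESeq2 called 1, 5, 0, 2 and 1 of them, and voom 1, 5, 0, 1 and 0. The cell cycle inhibitor Cdkn1a was at -0.11 (adjusted p = 0.884), the glucocorticoid-induced Fkbp5 at -0.05 (0.969) and the clock genes Per1 and Dbp at -0.08 (0.891) and 0.00 (0.998). Parathyroid genes were uncalled by edgeR as well (median -1.32 over 11, 1 at an unadjusted p below 0.05, 0 by DESeq2 and voom), and Pth, the parathyroid hormone gene, was at 2.34 to 3742 CPM in air against 0.0563 to 2131 CPM in smoke.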

How the data were processed

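RNA from whole larynx was sequenced as non-stranded libraries (NEBNext Ultra), per the labels' protocols. Reads were aligned with STAR and counted with featureCounts 1.5.0-p3 on GRCm38 (mm10), per the submitters' processing notes; neither the strand setting nor the annotation release is stated there. The authors deposited whole-number counts per gene, unnormalized, and these were used as deposited.

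The filterByExpr filter (minimum count 10, minimum total 15) left 17537 genes. TMM scaling and the quasi-likelihood test of edgeR 4.0.16 in R 4.3.3 were fitted to all 18 libraries by exposure group, with Benjamini-Hochberg adjustment over all tested genes and a threshold of 0.05. The pipeline was tested on simulated data. No comparison between libraries of a group showed a duplicated library: chi-square per degree of freedom was 16.99 to 150.5 over 30 pairs. All columns were matched to samples by name.

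The members and the 67 gene lists (1346 of 1435 symbols tested) were chosen with earlier results of these data known. Named genes are protein-coding calls with the 15 largest folds in each direction (mean of at least 1 CPM), the 10 smallest p-values or the 8 largest CPM changes in each direction, up to 3 called members per list, up to 5 called long noncoding RNAs in each direction, and defining genes; exceptions are stated. Alternatives were other scalings, filters, thresholds and covariates, DESeq2 1.42.0, limma 3.58.1 (voom), a replicate block and omitted libraries. Promoter sequences are from RefSeq (GRCm38.p6).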

Additional observations from a re-analysis of the deposited data

Results flagged for a closer look

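In 27 of 236 groups of 6 libraries, 1 library stood apart from the other 5 by a gap of more than 0.625 of the group's whole range in CPM. Independent normal values would give this in about 1 in 20 groups. The groups here share the same libraries, and most of their genes were named because they were called. The 27 can therefore not be read against that rate. Air 3 was the library that stood apart in 10 of the 27. Air 3 had Adh1 at 36.8 CPM (others 51 to 57.2), Bpifb9a at 12.6 CPM (others 0.854 to 3.07) and Dnajb1 at 154 CPM (others 77.5 to 103). It also had Coq10b at 89.5 CPM (others 41.4 to 46.8), Gnl3 at 73.6 CPM (others 36.4 to 42), Atf3 at 58.1 CPM (others 6.84 to 21.4) and Dusp2 at 344 CPM (others 28.5 to 96). It also had Areg at 27.1 CPM (others 1.44 to 2.53), Ptgs2 at 13.8 CPM (others 2.75 to 4.67) and Cdkn1a at 199 CPM (others 53.5 to 90). Air 2 had Cst10 at 0.633 CPM (others 0 to 0.175), Fos at 104 CPM (others 19.7 to 43.1) and Jun at 189 CPM (others 108 to 130). Air 4 had Mccc1 at 52 CPM (others 42.6 to 45.5). Air 5 had Cacybp at 124 CPM (others 78.2 to 93). Smoke 5 had Acaca at 361 CPM (others 111 to 191), Acly at 558 CPM (others 190 to 308), Tgfb2 at 22.5 CPM (others 11.2 to 14.8) and Tmem179 at 8.27 CPM (others 3.64 to 5.15). It also had Tra2a at 72.6 CPM (others 89.9 to 98.3) and Pcna at 32.3 CPM (others 38.9 to 42.1). Smoke 6 had Bscl2 at 67.1 CPM (others 54.4 to 58.7), Dgat2 at 332 CPM (others 175 to 231) and Cdkn1a at 144 CPM (others 57.8 to 88.9). Smoke 1 had Foxj1 at 69.9 CPM (others 49.7 to 55.2). Smoke 2 had Fos at 17 CPM (others 7.19 to 8.98). Smoke 3 had Hspa1a at 12 CPM (others 18.4 to 20.4).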

How the results depend on the processing

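The count of 279 called genes moved with most settings. It was 184 with no filter on low counts, 109 with the 12 smoke and air libraries alone, 967 with DESeq2 and 1120 with voom and quality weights. It was 25 at an adjusted p below 0.01 and 985 below 0.1. With covariates it was 3 (fast muscle, cartilage, thyroid follicle and white adipocyte scores), 735 (gland score, 61 shared with the 279) and 18 (cartilage score). Fits without 1 library gave 50 to 562 calls. In alternatives chosen after seeing the data it was 451 without air 4, 5 and 6, 2198 without air 1, 2 and 3, and 9 without air 4 and smoke 1, 3 and 6. RLE, upper quartile and total count scaling and a mean of at least 1 CPM gave 271 to 294. Of the 92 called genes named in the text, 28 were called in each fit without 1 library and 51 without air 4, 5 and 6. With the 12 smoke and air libraries alone 48 of the 92 kept their call, and with the replicate block 24. The gland score left 36, the cartilage score 11 and the 4 tissue scores together 1. DESeq2 called 89 of the 92 and voom all 92. Without air 4 and smoke 1, 3 and 6, 7 of the 92 were called.

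With a replicate block 39 genes were called, all among the 279. The replicate numbers do not pair the samples: same-numbered air and smoke libraries correlated at -0.29 to 0.117 in their deviations from the group means, and none matched best with its own number. Depth limits genes of few counts, such as Cst10 (15 counts over all air libraries, SE 0.79).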
